A study of Mus musculus with 24 samples.

Results

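The lysosome is the acidic compartment in which cells break down proteins, glycans and lipids, and 39 mouse genes of its enzymes, membrane proteins and supporting factors are described here in frontal cortex. The genes were chosen by name for what their products do: 8 proteases, 10 glycosidases, 4 sulfatases and sulfamidase, 5 lipid enzymes, 8 membrane and lipid transport proteins, 2 endoplasmic reticulum proteins, and 2 genes of regulation and targeting. All 39 were found among the 52352 genes with a transcript in the deposited files, and all 39 were among the 18239 genes that passed the filter on low counts.

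Bulk RNA of the frontal cortex was sequenced from 24 mice, 6 of each of 4 genotypes with 3 females and 3 males per genotype. Grn+/-:hTDP+ mice had 1 working copy of the progranulin gene Grn and a transgene for human TDP-43, and were 9.44 to 10.07 months old. Grn+/-:hTDP- mice had 1 working copy and no transgene, and were 8.19 to 10.79 months old. Grn+/+:hTDP+ mice had both copies and the transgene, and were 9.44 to 10.07 months old, and Grn+/+:hTDP- mice had both copies and no transgene, and were 9.44 to 10.79 months old. The promoter that drives the transgene and the kind of Grn allele are not stated in the sources used here. The title of the series names the interplay of the Grn and TDP-43 genotypes as its question.

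Lysosomal enzymes are made in the endoplasmic reticulum, most are tagged with mannose 6-phosphate in the Golgi, and receptors for that tag carry them to the lysosome. TFEB, a transcription factor, binds short elements built on an E-box near the starts of many of these genes and raises their transcription when nutrients are scarce or lysosomes are stressed. Progranulin is itself carried to the lysosome, where proteases cut it into granulins. In people, loss of both GRN copies causes neuronal ceroid lipofuscinosis, a lysosomal storage disease of neurons, and loss of 1 copy causes frontotemporal dementia with aggregates of TDP-43.

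The starts of these genes were searched for the E-box that TFEB elements share. The genes were chosen by name, but TFEB elements are known near the starts of many of them. The search is therefore a description and no independent test. RefSeq promoter windows of GRCm38.p6, from 250 bases before the annotated start to 50 after it, were available for 35 of the 39 genes, the exceptions being Asah1, Cln8, Ctsb and Npc1. The 6 letters CACGTG, a palindrome, so that 1 search covers both strands, were present in the windows of 14 of 35 genes (40.0%). The same letters were present in 2187 of all 27025 genes with a window (8.09%). The 8 letters TCACGTGA, which contain CACGTG, were present in 5 of 35 genes (14.3%), namely Cln3, Ctsa, Ctsd, Gla and Mcoln1, and in 304 of all 27025 genes (1.12%). A match is a description of the letters in the window and does not show that a factor bound there.
The sequences below are shown for the genes of a ceroid lipofuscinosis protein, the proteases cathepsin A and D, the lysosomal calcium channel and a common marker of the lysosomal membrane. Each is written 5′ to 3′ on the strand of the gene, with the E-box letters in capitals (TCACGTGA in the first 4, CACGTG in Lamp1).
Cln3: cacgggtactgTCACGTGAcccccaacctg
Ctsa: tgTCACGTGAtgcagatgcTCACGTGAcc
Ctsd: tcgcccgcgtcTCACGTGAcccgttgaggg
Mcoln1: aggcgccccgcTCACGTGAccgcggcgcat
Lamp1: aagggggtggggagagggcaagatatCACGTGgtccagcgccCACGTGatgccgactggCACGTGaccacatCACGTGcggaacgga
In GRCm38.p6 these are chr7:126583340-126583369 on the minus strand for Cln3, chr2:164833758-164833786 on the plus strand for Ctsa, chr7:142387908-142387937 on the minus strand for Ctsd, chr8:3500462-3500491 on the plus strand for Mcoln1 and chr8:13159074-13159160 on the plus strand for Lamp1. In GENCODE M21, the Cln3, Ctsa, Ctsd and Mcoln1 stretches overlap a 5′ exon that is untranslated in at least 1 transcript of the gene, and the Lamp1 stretch ends at the base before the first exon. Counted from the first of the 8 letters, the Ctsa matches began at -13 and 4 bases from the RefSeq start, and Lamp1 held 4 E-boxes between -61 and -15. The first base of a CACGTG lay within 150 bases upstream of the start in 12 of the 14 genes.

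**Figure D1:**
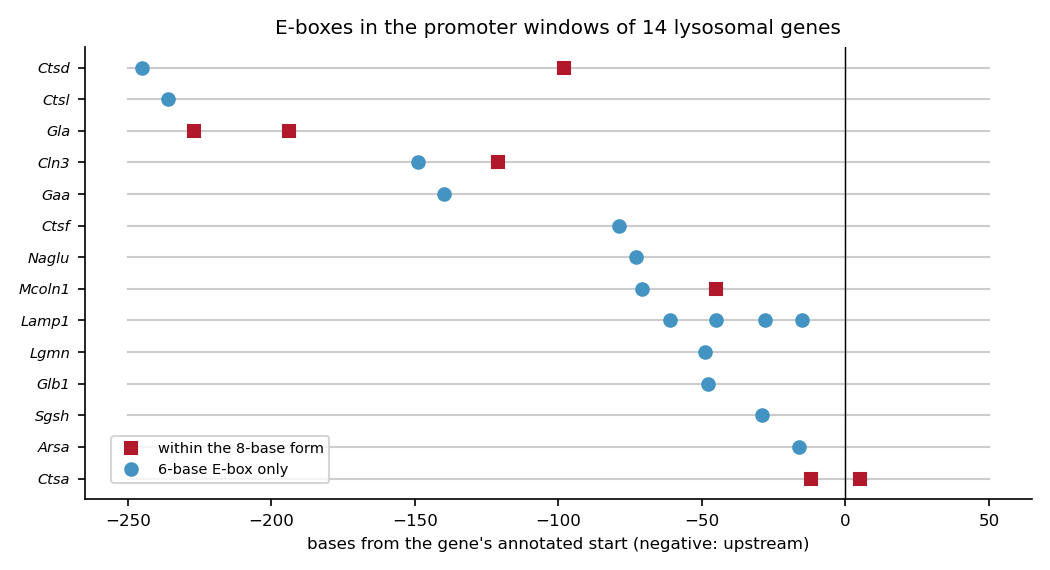
Positions of the E-box CACGTG in the promoter windows of the 14 lysosomal genes that hold it. The horizontal axis is the distance in bases of the first base of the match from the RefSeq start, with red squares for matches inside the longer TCACGTGA and blue circles for the other matches; Lamp1 has 4 matches within 61 bases of its start.

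The genotype labels were checked against the genes they name. Grn had 17.2, 27.2 and 32.9 CPM (counts scaled to a common library size; lowest, median and highest of 6 mice) in Grn+/-:hTDP+ mice and 13.8, 28.4 and 30.01 CPM in Grn+/-:hTDP- mice. It had 34.7, 48.3 and 57.2 CPM in Grn+/+:hTDP+ mice and 40.6, 53.4 and 60.5 CPM in Grn+/+:hTDP- mice, so the Grn genotypes did not overlap. Reads of human TARDBP numbered 4328 to 8162 in transgenic libraries and 0 to 2 in the others. Libraries held 61445842 to 100859149 estimated reads. In the second Grn+/+:hTDP+ library 40188 transcripts had reads, whereas 65994 to 69846 had reads elsewhere. In it 21 of the 39 lysosomal genes lay outside the range of the other 5 mice of its group, 10 above it and 11 below it. Any mouse of 6 is the highest or the lowest for some genes, and the share of all genes outside that range was not counted. The 21 are therefore not shown to be particular to these genes or to this library. No member was called without that library, and the interaction of Npc2 and the count of interaction members are given without it below. Transcript usage was not tested without it, and the transcript shares below include it.

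Levels are given first in TPM, a scaled abundance that corrects for length and so allows genes to be compared. The 39 genes together made up 0.256% to 0.292% of the TPM of a library. The members spanned a wide range: 31 had a mean of at least 10 TPM over the 24 mice and 7 had at least 100 TPM. The highest was Ctsb, the cysteine protease cathepsin B, at 397 ± 30.3 TPM (SD, n = 24). Next came Ctsd, the aspartic protease cathepsin D, at 315 ± 14.1 TPM. Ids, the iduronate sulfatase that starts the breakdown of dermatan and heparan sulfate, had 251 ± 13.3 TPM, Lamp1 247 ± 14.6 TPM and Gaa, the acid glucosidase of glycogen breakdown, 229 ± 18.1 TPM. Ids, Lamp1 and Gaa were closer to one another than the sum of their standard deviations. Smpd1, acid sphingomyelinase, had 112 ± 4.03 TPM, and Lgmn, the asparaginyl protease legumain, had 101 ± 4.17 TPM. 

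At the low end, Tfeb had 6.21 ± 1.19 TPM, Manba, beta-mannosidase, 5.32 ± 0.557 TPM and Sgsh, the sulfamidase of heparan sulfate breakdown, 3.40 ± 0.501 TPM. Gla, the alpha-galactosidase of globotriaosylceramide breakdown, was listed at 0.377 TPM on average, between 0 and 1.5 TPM, and had no read in 5 of 24 libraries. A transcript of Gla that is absent from GENCODE M21 would not be counted here, so its level and its changes are uncertain. The order by CPM, which is not corrected for length, differed: 9 genes moved by more than 5 ranks, and Ids led.

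TPM also moved with how reads were divided among transcripts. Cln8, an endoplasmic reticulum protein of enzyme transport, ranged from 6.97 to 21.8 TPM over the 24 mice while its CPM ranged from 25.7 to 33.8. Its leading transcript held 98.6% of its reads and 6.97 to 9.39 TPM, and the other 4 transcripts together were listed at 0 to 13.6 TPM. Galc, the galactocerebrosidase of myelin lipid breakdown, likewise ranged from 11.3 to 22.5 TPM and from 20.8 to 25.8 CPM. Changes between genotypes are therefore given from counts.

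**Figure D2:**
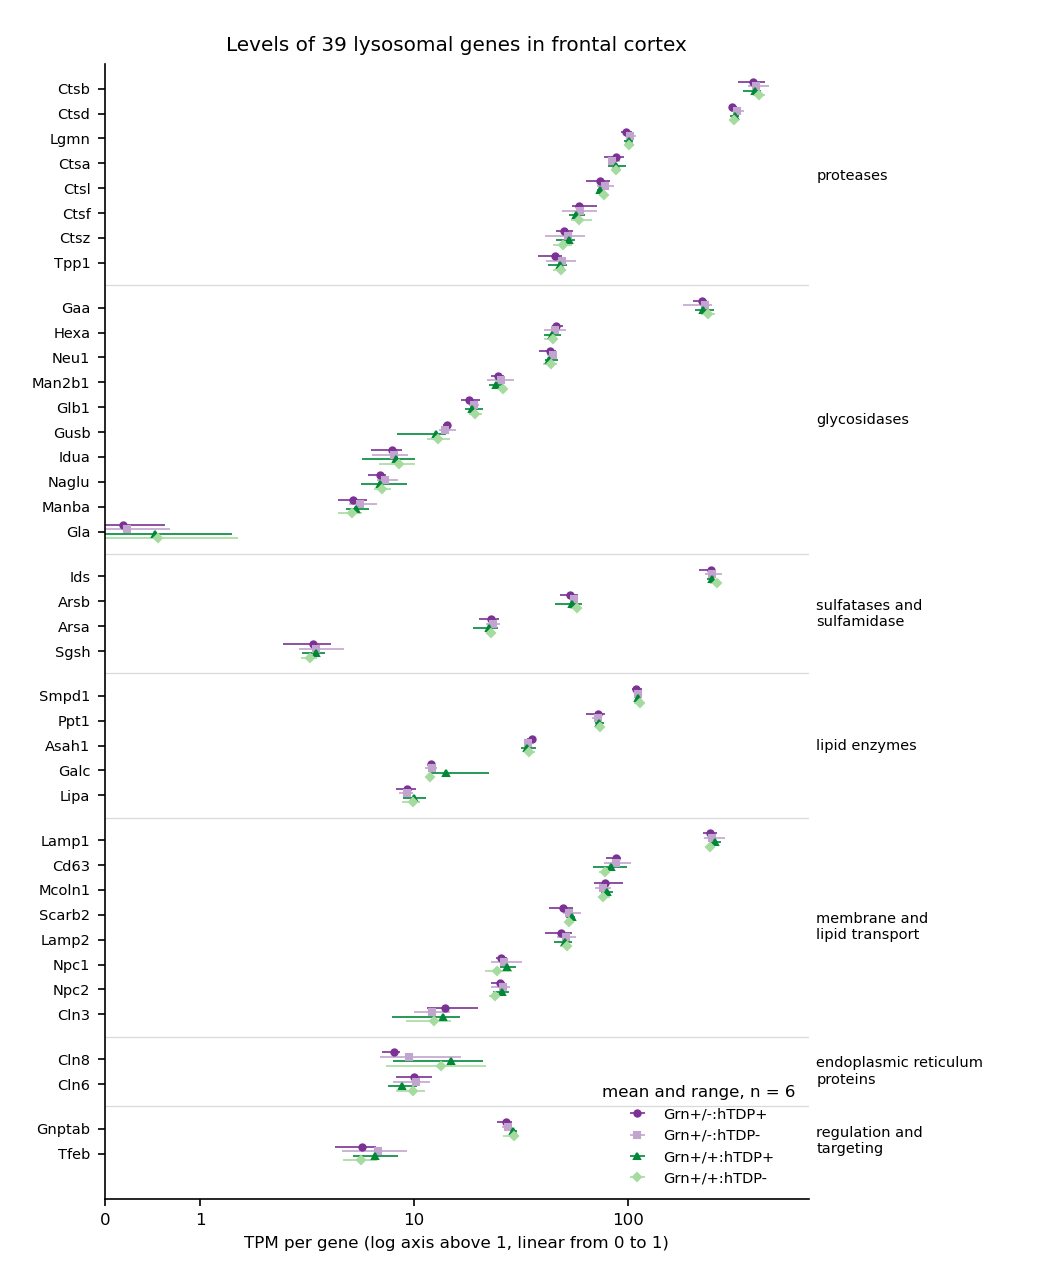
Level of each of the 39 genes in TPM, on an axis that is logarithmic above 1 and linear from 0 to 1. Symbols are means and lines the lowest to the highest of 6 mice in each genotype, ordered within each role by level; Ctsb is highest at 397 TPM over all mice and Gla lowest at 0.377 TPM.

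Within a genotype the mice were alike. For the 38 members with a mean of at least 5 CPM, the median coefficient of variation within a genotype was 6.16%, beside 7.42% for the 11397 genes above the same level. The steadiest was Smpd1 at 2.41%. Tfeb varied the most of the 38, at 15.04%.

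None of the 39 genes passed the test in any comparison of genotypes or between females and males. The test was edgeR's quasi-likelihood test with Benjamini-Hochberg adjustment over all 18239 genes, called at an adjusted p under 0.05, and DESeq2 and limma voom with the same model called 0 of 39 as well. For the transgene averaged over the Grn genotypes (hTDP+ minus hTDP-), 0.110% of all genes were called. The share of all genes called was 0.0329% for the transgene in Grn+/+ mice and 0.0219% for the transgene in Grn+/- mice. For Grn+/- minus Grn+/+ it was 0.0219% on average over the transgene states, 0.0110% in hTDP- mice and 0.00548% in hTDP+ mice. It was 0% for the interaction (the transgene change in Grn+/- minus that in Grn+/+), 0.0768% for Grn+/-:hTDP+ against Grn+/+:hTDP- and 0.0713% for females minus males. At these rates the share over all genes would place less than 1 gene among 39.

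At an unadjusted p under 0.05, which no correction supports, the members' counts lay on either side of the share of all genes. There were 0 of 39 members for the average transgene change, beside 7.86% of all genes, 2 for the transgene in Grn+/+ mice, beside 7.83%, and 0 for the transgene in Grn+/- mice, beside 2.38%. There were 3 for the average Grn change, beside 4.93%, 4 (10.3%) for Grn in hTDP- mice, beside 3.41%, and 1 for Grn in hTDP+ mice, beside 3.37%. There were 4 (10.3%) for the interaction, beside 2.38%, 3 for both genotypes together, beside 9.40%, and 4 (10.3%) for sex, beside 5.99%. These differences in share were not tested.

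The intervals were narrow. The 95% interval of the log2 change lay within 0.32 of 0 for 38 of 39 members in the average transgene comparison, beside 65.9% of all genes, and for 38 of 39 in the average Grn comparison, beside 66.7% of all genes. For the interaction, which has the widest error, it did so for 32 of 39, beside 45.5% of all genes. These shares of all genes were not matched for level. A mean of at least 5 CPM was reached by 38 of 39 members and by 11397 of the 18239 genes tested. The median standard error of a member's log2 change was 0.036 for each average and 0.073 for the interaction. The exception in both averages was Gla, whose CPM had medians of 0.134 in Grn+/-:hTDP+, 0.158 in Grn+/-:hTDP-, 0.376 in Grn+/+:hTDP+ and 0.498 in Grn+/+:hTDP- mice, with a lowest value of 0 in all 4 groups. Its log2 change of -1.55 for the average Grn comparison was the largest of any member and was not called.

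**Figure D3:**
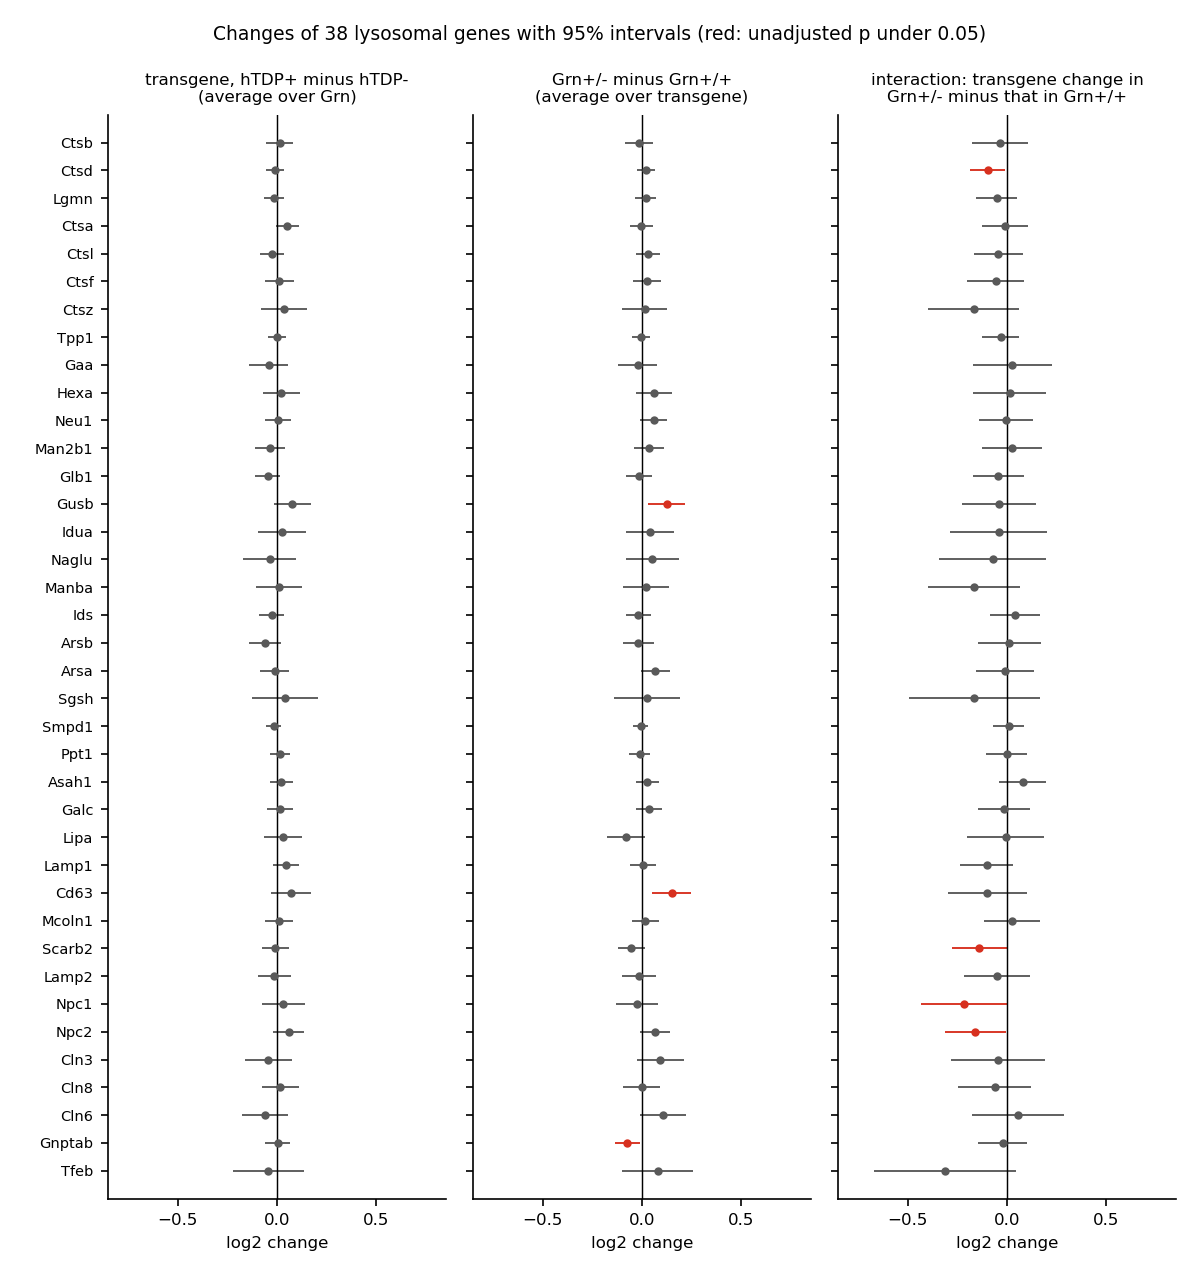
Log2 change with its 95% interval for 38 of the 39 genes, leaving out Gla, in the average transgene comparison, the average Grn comparison and the interaction. Red marks an unadjusted p under 0.05; no gene passed the adjusted threshold, and the red points are Gusb, Cd63 and Gnptab for Grn and Ctsd, Scarb2, Npc1 and Npc2 for the interaction.

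The average transgene changes of the 8 proteases ran from -0.03 to 0.05 on the log2 scale. Ctsb had 528, 573 and 615 CPM in Grn+/-:hTDP+ mice, 543, 563 and 643 CPM in Grn+/-:hTDP- mice, 538, 585 and 616 CPM in Grn+/+:hTDP+ mice and 530.5, 564 and 621 CPM in Grn+/+:hTDP- mice (lowest, median and highest of 6). All 4 groups overlapped, and its log2 change was 0.01 (SE 0.03) for the transgene and -0.01 (SE 0.03) for Grn. The average Grn changes of the 8 proteases ran from -0.01 to 0.03 on the log2 scale. Within backgrounds their Grn changes ran from 0.00 to 0.10 in hTDP- mice and from -0.07 to 0.01 in hTDP+ mice. Their interactions ran from -0.17 to -0.01.

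Ctsd, the protease whose loss causes a severe ceroid lipofuscinosis, had 296, 307 and 319 CPM in Grn+/-:hTDP+ mice and 303, 320.3 and 343 CPM in Grn+/-:hTDP- mice. It had 293, 315 and 330.1 CPM in Grn+/+:hTDP+ mice and 295, 306 and 314 CPM in Grn+/+:hTDP- mice. The groups overlapped. The log2 change of Ctsd with loss of a Grn copy was 0.07 (SE 0.03) in hTDP- mice and -0.03 in hTDP+ mice, and the interaction was -0.10 (SE 0.04; unadjusted p = 0.0337, adjusted p = 0.99998 by edgeR's quasi-likelihood test). Tpp1, the tripeptidyl peptidase lost in another ceroid lipofuscinosis, had 51.95, 52.9 and 57.05 CPM in Grn+/-:hTDP+ mice, 51.4, 54.3 and 57.5 CPM in Grn+/-:hTDP- mice, 52.7, 54.2 and 58.00 CPM in Grn+/+:hTDP+ mice and 52.3, 53.9 and 55.9 CPM in Grn+/+:hTDP- mice. These ranges were almost the same.

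Ctsa, cathepsin A, which also shields beta-galactosidase and neuraminidase from breakdown, was the member of smallest p for the average transgene change. It had 79.1, 85.00 and 88.00 CPM in Grn+/-:hTDP+ mice, 76.02, 80.6 and 86.04 CPM in Grn+/-:hTDP- mice, 78.2, 84.9 and 91.4 CPM in Grn+/+:hTDP+ mice and 78.1, 80.98 and 83.8 CPM in Grn+/+:hTDP- mice. The groups overlapped, and the log2 change was 0.05 (SE 0.03; unadjusted p = 0.0817, adjusted p = 0.672 by edgeR's quasi-likelihood test). Ctsa overlaps Pltp and Neurl2 on the opposite strand, and since the labels' protocol does not make clear whether strand was kept, such genes may share reads. The same holds, among others, for Ctsb with Fdft1, Ctsz with Nelfcd, Ppt1 with Cap1 and Npc1 with Rmc1. It also holds for Idua with Dgkq and Slc26a1, Arsa with C230037L18Rik, Hexa with Tmem202 and Lamp1 with Grtp1. Glb1 overlaps Tmppe on its own strand.

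The glycosidases remove sugars from glycoproteins, glycolipids and glycosaminoglycans. Gusb, beta-glucuronidase, was the glycosidase with the smallest p for Grn. It had 11.2, 11.9 and 13.02 CPM in Grn+/-:hTDP+ mice, 10.6, 11.1 and 13.2 CPM in Grn+/-:hTDP- mice, 10.1, 11.1 and 11.9 CPM in Grn+/+:hTDP+ mice and 9.44, 10.4 and 11.9 CPM in Grn+/+:hTDP- mice. The highest median was that of Grn+/-:hTDP+ mice, and the groups overlapped. The average Grn change was 0.12 on the log2 scale (SE 0.04; unadjusted p = 0.0111, adjusted p = 0.926 by edgeR's quasi-likelihood test), and the average transgene change was 0.08, which became 0.01 with length-scaled counts. With both genotype changes against neither, Gusb differed by 0.20 (SE 0.06; unadjusted p = 0.00431, adjusted p = 0.379).

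Hexa, the alpha chain of the hexosaminidase that is lost in Tay-Sachs disease, had 41.3, 42.9 and 48.8 CPM in Grn+/-:hTDP+ mice and 38.1, 41.04 and 48.1 CPM in Grn+/-:hTDP- mice. It had 38.3, 40.5 and 45.7 CPM in Grn+/+:hTDP+ mice and 37.04, 42.3 and 43.1 CPM in Grn+/+:hTDP- mice. The ranges overlapped, and the log2 change was 0.06 for Grn and 0.02 for the transgene. The other glycosidases apart from Gla had average Grn changes between -0.02 (Gaa) and 0.05 or 0.06 (Naglu, Neu1). The 4 sulfatases and sulfamidase ran from -0.02 (Ids and Arsb) to 0.07 (Arsa), and none had an unadjusted p under 0.05 in any of the 9 comparisons.

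Of the lipid enzymes, Asah1, acid ceramidase, had 43.04, 44.8 and 46.4 CPM in Grn+/-:hTDP+ mice, 40.4, 43.04 and 44.5 CPM in Grn+/-:hTDP- mice, 37.6, 42.7 and 47.5 CPM in Grn+/+:hTDP+ mice and 41.04, 43.5 and 44.4 CPM in Grn+/+:hTDP- mice. The groups overlapped, with log2 changes of 0.02 for the transgene and 0.03 for Grn. Smpd1 differed by -0.02 and -0.01 on the same scale. Lipa, the acid lipase of cholesteryl ester breakdown, had the lowest average Grn change of the 5, -0.08. None of the lipid enzymes had an unadjusted p under 0.05 in any comparison.

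Of the 4 members with an unadjusted p under 0.05 for the interaction, 3 were membrane and lipid transport genes, namely Npc1, Npc2 and Scarb2. That role holds 8 of the 39 members, and its gene of smallest p for the average Grn change was Cd63. Cd63, a tetraspanin of late endosomes, lysosomes and secreted vesicles, had 33.03, 37.7 and 40.6 CPM in Grn+/-:hTDP+ mice and 32.4, 35.8 and 43.4 CPM in Grn+/-:hTDP- mice. It had 28.99, 35.2 and 40.99 CPM in Grn+/+:hTDP+ mice and 30.9, 32.1 and 33.8 CPM in Grn+/+:hTDP- mice. Of the 4 groups, Grn+/+:hTDP- had the lowest median and the tightest range, and it overlapped each of the others. The average Grn change of Cd63 was 0.15 on the log2 scale (SE 0.05, 1.11-fold; unadjusted p = 0.00489, adjusted p = 0.926 by edgeR's quasi-likelihood test). The change was 0.20 in hTDP- mice and 0.10 in hTDP+ mice, and 0.22 with both genotypes against neither (SE 0.07; adjusted p = 0.379).

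Npc2, the soluble protein that hands cholesterol to the membrane transporter NPC1, had 37.9, 42.00 and 44.04 CPM in Grn+/-:hTDP+ mice, 37.7, 42.3 and 45.1 CPM in Grn+/-:hTDP- mice, 37.7, 41.9 and 45.9 CPM in Grn+/+:hTDP+ mice and 36.2, 38.6 and 39.9 CPM in Grn+/+:hTDP- mice. Again Grn+/+:hTDP- mice had the lowest median, and the groups overlapped. Npc2 differed by 0.14 (SE 0.05) with the transgene in Grn+/+ mice, by -0.02 with the transgene in Grn+/- mice and by 0.14 (SE 0.05) with Grn in hTDP- mice. The interaction was -0.16 (SE 0.07; unadjusted p = 0.0432, adjusted p = 0.99998 by edgeR's quasi-likelihood test). Without the second Grn+/+:hTDP+ library the interaction of Npc2 was -0.13.

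Npc1, which moves cholesterol out of the lysosome, had 57.2, 62.8 and 67.9 CPM in Grn+/-:hTDP+ mice, 59.3, 62.8 and 78.9 CPM in Grn+/-:hTDP- mice, 64.9, 66.9 and 76.7 CPM in Grn+/+:hTDP+ mice and 53.7, 61.7 and 74.1 CPM in Grn+/+:hTDP- mice. The groups overlapped widely. Its interaction was -0.22 (SE 0.10; unadjusted p = 0.0482, adjusted p = 0.99998 by edgeR's quasi-likelihood test). Scarb2, the carrier of glucocerebrosidase to the lysosome, had 106, 124 and 134 CPM in Grn+/-:hTDP+ mice, 122, 126 and 144 CPM in Grn+/-:hTDP- mice, 125, 133 and 139 CPM in Grn+/+:hTDP+ mice and 121, 127 and 131 CPM in Grn+/+:hTDP- mice. The groups overlapped, and the lowest value was that of a Grn+/-:hTDP+ mouse. Scarb2 differed by -0.12 (SE 0.05) with Grn in hTDP+ mice, and its interaction was -0.14 (SE 0.07; unadjusted p = 0.0470).

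Lamp1 had 246, 264 and 277 CPM in Grn+/-:hTDP+ mice, 243, 262 and 298 CPM in Grn+/-:hTDP- mice, 257, 264 and 291 CPM in Grn+/+:hTDP+ mice and 238, 254 and 266 CPM in Grn+/+:hTDP- mice. The groups overlapped, and Lamp1 differed by 0.10 (SE 0.05; unadjusted p = 0.0465, adjusted p = 0.636 by edgeR's quasi-likelihood test) with the transgene in Grn+/+ mice and by -0.01 in Grn+/- mice. Cln3, a membrane protein lost in juvenile ceroid lipofuscinosis, had 7.65, 8.26 and 9.31 CPM in Grn+/-:hTDP+ mice, 7.77, 8.44 and 10.3 CPM in Grn+/-:hTDP- mice, 7.06, 7.998 and 9.05 CPM in Grn+/+:hTDP+ mice and 7.28, 8.06 and 9.32 CPM in Grn+/+:hTDP- mice. Its ranges overlapped, and its average Grn change was 0.09 on the log2 scale.

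**Figure D4:**
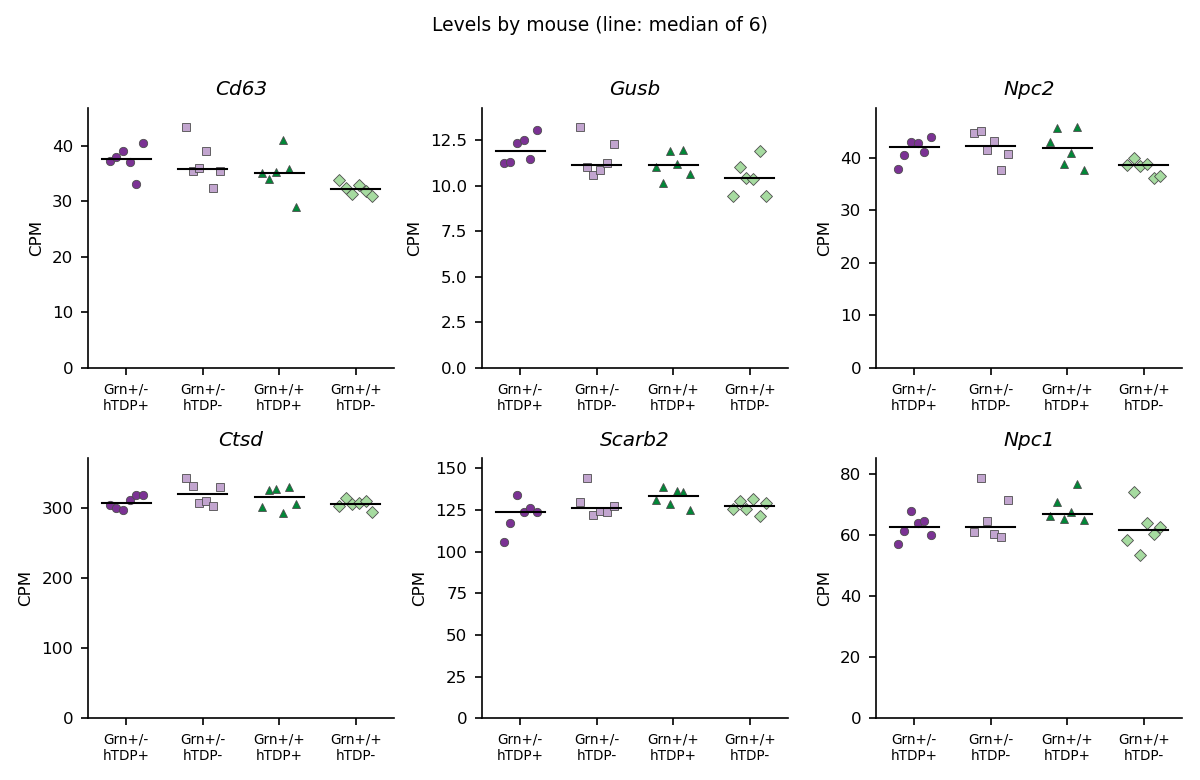
Level in CPM of 6 genes in each mouse, with the 4 genotypes along the horizontal axis and a line at the median of 6 mice. The vertical axes start at 0. Cd63, Gusb and Npc2 have their lowest medians in Grn+/+:hTDP- mice (32.1, 10.4 and 38.6 CPM), and the ranges of all 4 genotypes overlap in each panel.

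Of the regulation and targeting genes, Tfeb had 4.93, 6.47 and 6.89 CPM in Grn+/-:hTDP+ mice, 5.196, 6.99 and 8.86 CPM in Grn+/-:hTDP- mice, 5.64, 6.33 and 7.699 CPM in Grn+/+:hTDP+ mice and 4.91, 5.98 and 7.18 CPM in Grn+/+:hTDP- mice. The groups overlapped, and its log2 changes were -0.04 (SE 0.09) for the transgene and 0.08 (SE 0.09) for Grn. Within backgrounds, Tfeb differed by 0.24 (SE 0.12) with Grn in hTDP- mice, the highest value of the 39 members, and by -0.08 (SE 0.12) in hTDP+ mice. It differed by 0.11 (SE 0.12) with the transgene in Grn+/+ mice and by -0.20 (SE 0.12) in Grn+/- mice, and its interaction was -0.31 (SE 0.17). The last 2 values were the lowest of the 39 members, and none of the 5 was called or had an unadjusted p under 0.05 (smallest 0.0651, for Grn in hTDP- mice, with an adjusted p of 0.99987 by edgeR's quasi-likelihood test). Gnptab, the enzyme that starts the mannose 6-phosphate tag, had 62.2, 71.3 and 76.5 CPM in Grn+/-:hTDP+ mice, 68.4, 70.5 and 73.9 CPM in Grn+/-:hTDP- mice, 71.05, 73.4 and 80.6 CPM in Grn+/+:hTDP+ mice and 67.8, 74.5 and 77.6 CPM in Grn+/+:hTDP- mice. Its ranges overlapped, and its average Grn change was -0.07 on the log2 scale (SE 0.03; unadjusted p = 0.0221, adjusted p = 0.926 by edgeR's quasi-likelihood test).

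The signs of the small changes differed between the backgrounds, and no test of the list was made. In hTDP- mice, 30 of 39 members were above 0 for Grn+/- minus Grn+/+, beside 53.9% of all genes. The median log2 change of the 39 members was 0.04, beside 0.01 for all genes. Between mice of a genotype, the members' median log2 CPM, centred per gene, had an SD of 0.034. The members were measured in the same mice, so their signs are not separate pieces of evidence. The 30 included 8 of 8 proteases and 8 of 8 membrane and lipid transport genes but 1 of 5 lipid enzymes. In hTDP+ mice, 15 of 39 were above 0, beside 51.4% of all genes, with a median of -0.01. For the interaction, 10 of 39 were above 0 and 29 below, and 51.1% of all genes were above 0. The members' median was -0.04, beside 0.00 for all genes. These comparisons share mice: the Grn+/+:hTDP- group enters the transgene change in Grn+/+ mice, the Grn change in hTDP- mice, the interaction and the comparison of both genotypes with neither. The median for the average transgene change was 0.01 and for the average Grn change 0.02, beside 0.00 and 0.01 for all genes. The 14 genes with CACGTG in their window had a median change of 0.02 for Grn and -0.01 for the transgene, and the 21 with a window and without those letters had 0.02 and 0.01.

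Markers of other cell types are given for the same comparisons. All 8 homeostatic microglial markers were above 0 for Grn+/- minus Grn+/+ in hTDP- mice (median log2 change 0.12), as were 8 of 9 activated microglial markers (0.19), 8 of 8 astrocyte markers (0.13), 10 of 10 oligodendrocyte markers (0.35) and 10 of 10 mural and meningeal markers (0.29). Of the oligodendrocyte precursor markers 5 of 5 were above 0 (0.17), and of the endothelial markers 5 of 6 (0.06). The neuronal lists had 3 of 8 excitatory markers (median -0.05) and 3 of 7 inhibitory markers (-0.02) above 0. No marker of any list was called, and none of these markers was at 0 throughout a group. For the interaction, 10 of 10 oligodendrocyte markers were below 0 (median -0.88), as were 9 of 10 mural and meningeal markers (-0.16) and 7 of 8 astrocyte markers (-0.10), whereas 8 of 8 excitatory neuronal markers were above 0 (0.10). Of the microglial markers, 3 of 8 homeostatic (median -0.06) and 5 of 9 activated (0.00) were above 0 for the interaction. The precursor list had 0 of 5 above 0 (-0.14), the endothelial list 4 of 6 (0.01) and the inhibitory list 3 of 7 (-0.01). The summed level of the 10 oligodendrocyte markers ran from 1225 to 3086 CPM in Grn+/-:hTDP+, 1322 to 5535 CPM in Grn+/-:hTDP-, 1959.5 to 4195 CPM in Grn+/+:hTDP+ and 1216 to 2993 CPM in Grn+/+:hTDP- mice. The medians were 2230, 1789, 2751 and 1849 CPM in that order. The median of Grn+/-:hTDP- mice was thus below that of Grn+/+:hTDP- mice, although all 10 log2 changes were above 0. That of the 10 activated microglial markers ran from 41.6 to 59.0 CPM in Grn+/-:hTDP+, 42.7 to 61.3 CPM in Grn+/-:hTDP-, 36.4 to 51.6 CPM in Grn+/+:hTDP+ and 39.4 to 51.1 CPM in Grn+/+:hTDP- mice. All 5 blood markers were above 0 in the average Grn comparison (median 0.97), with summed levels of 13.2 to 77.9 CPM in Grn+/-:hTDP+, 10.96 to 150.3 CPM in Grn+/-:hTDP-, 17.9 to 54.2 CPM in Grn+/+:hTDP+ and 11.1 to 30.8 CPM in Grn+/+:hTDP- mice. In bulk tissue, more cells of a type and more RNA per cell cannot be told apart.

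With the levels of the microglial, oligodendrocyte and mural lists as covariates, the members' median was 0.01 for Grn in hTDP- mice and -0.01 for the interaction. In that fit the average Grn change of Cd63 was 0.09, the interaction of Npc1 -0.06, the interaction of Scarb2 -0.06, the interaction of Npc2 -0.10 and the transgene change of Lamp1 in Grn+/+ mice 0.02. Over all other settings, that fit among them, the average Grn change was 0.09 to 0.16 for Gusb and -0.08 to -0.07 for Gnptab. The interaction of Ctsd was -0.11 to -0.08. With the covariates, members at an unadjusted p under 0.05 went from 0 to 2 for the average transgene change and from 3 to 4 for the average Grn change. They went from 4 to 2 for Grn in hTDP- mice and from 4 to 0 for the interaction. Age also differed between the groups, since 4 of the 6 Grn+/-:hTDP- mice were of ages that no other group had. With each age as a factor, Cd63 differed by 0.12 for the average Grn change and Npc2 by 0.17 for Grn in hTDP- mice. In that fit, the mice of unshared ages do not inform the comparison of genotypes. The Grn+/-:hTDP- level then rests on the mice of that group aged 9.44 and 10.79 months. What part cell makeup or age has in these differences was not tested.

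No member was called between females and males. Ctsd had 305, 318 and 343 CPM in 12 females and 293, 303 and 330 CPM in 12 males (lowest, median and highest), and differed by 0.07 (SE 0.02; unadjusted p = 0.00506, adjusted p = 0.687 by edgeR's quasi-likelihood test). Glb1, the acid beta-galactosidase, had a median of 22.5 CPM in females and 21.01 CPM in males, Tpp1 55.6 and 52.8 CPM, and Naglu, an enzyme of heparan sulfate breakdown, 9.10 and 8.53 CPM. The sexes overlapped for each. The log2 changes were 0.08, 0.05 and 0.15.

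TDP-43 regulates splicing, so the shares of transcripts were also examined. A leading transcript took over 90% of the reads in 25 of 39 genes, and in all 39 the leading transcript was annotated as protein coding. Usage could be tested in the 16 genes with at least 2 transcripts above 5% of their reads. With limma's diffSplice and Simes' method, adjusted over 7877 genes, 0 of 16 were called for the average transgene change, beside 0.457% of all genes, and 0 of 16 for the average Grn change, beside 0.0254%. edgeR's likelihood-ratio version called 0 of 16 in both. At an unadjusted p under 0.05 there were 3 for the transgene, beside 16.1% of all genes, and 1 for Grn, beside 9.58%.

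Lamp2, a lysosomal membrane protein known for isoforms that differ in their last exon, has 3 coding transcripts above 5% and had the smallest p for the transgene. Its transcript Lamp2-203 held 35.0% ± 1.71 of the reads in hTDP+ mice and 38.8% ± 2.97 in hTDP- mice (SD, n = 12 each), with ranges of 32.4% to 37.3% and 33.0% to 42.7%. By genotype the share was 35.6% ± 1.62 in Grn+/-:hTDP+, 36.6% ± 2.11 in Grn+/-:hTDP-, 34.5% ± 1.74 in Grn+/+:hTDP+ and 41.1% ± 1.75 in Grn+/+:hTDP- mice (SD, n = 6 each). Lamp2-202 held 49.3% ± 1.79 in hTDP+ mice and 46.4% ± 2.78 in hTDP- mice. The difference in usage was not called (unadjusted p = 0.00449, adjusted p = 0.142 by limma's diffSplice; unadjusted p = 0.0590 by edgeR).

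Gaa and Lgmn were the other members below an unadjusted 0.05 for the transgene. Gaa-201 held 15.4% ± 3.99 in hTDP+ mice and 13.0% ± 2.16 in hTDP- mice, and Lgmn-202 held 29.95% ± 4.40 in hTDP+ mice and 27.2% ± 3.37 in hTDP- mice (SD, n = 12 each). The ranges overlapped in both. Arsa, the arylsulfatase of sulfatide breakdown, stood out for another reason: a transcript with a retained intron, Arsa-201, held 38.1% of its reads. That share was 39.2% ± 5.11 in hTDP+ mice and 37.5% ± 2.17 in hTDP- mice. The shares of Cln3 were unstable between mice, with Cln3-201 between 0% and 56.5% in hTDP+ mice and between 11.9% and 75.0% in hTDP- mice, so the order of its transcripts varied between mice.

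**Figure D5:**
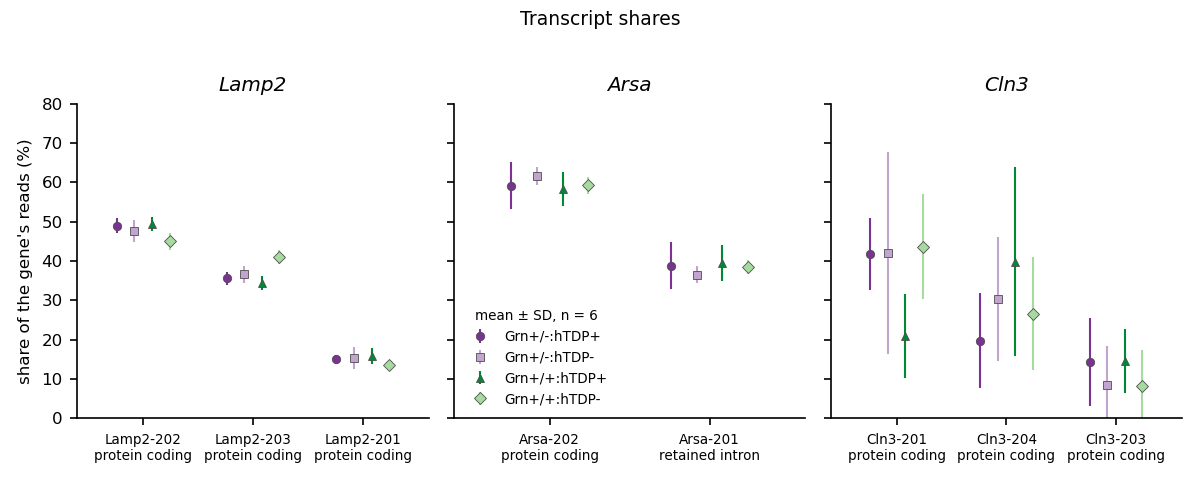
Share of each gene's reads, in percent, held by its transcripts above 5%, as the mean ± SD of 6 mice per genotype, for Lamp2, Arsa and Cln3. Lamp2-203 is highest in Grn+/+:hTDP- mice at 41.1%, Arsa-201 with its retained intron lies between 36.5% and 39.5% in every genotype, and the error bars of Cln3 are wide.

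No gene was called among the rest of the pathway either. Of 23 other hydrolases and activators, 21 other membrane proteins and transporters, 17 genes of delivery and sorting, and 19 of TFE factors and nutrient sensing that were tested, 0 were called in the average transgene, average Grn or interaction comparisons by edgeR. At an unadjusted p under 0.05 there were, in that order of lists, 1, 2, 2 and 2 for the transgene, beside 7.86% of all genes. There were 2, 0, 1 and 0 for Grn, beside 4.93%, and 0 in each list for the interaction, beside 2.38%. These counts were not tested against the shares of all genes. Ctns, the cystine exporter, differed by 0.13 and Sort1, the sortilin that carries progranulin to the lysosome, by -0.08 with the transgene. Vps35, a retromer subunit that recycles sorting receptors, differed by -0.08 with Grn. Ctns, Sort1 and Vps35 are examples that no stated rule picked, and none was called. The median changes of the 4 lists lay between -0.02 and 0.01 for the transgene and between -0.02 and 0.04 for Grn.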

How the data were processed

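Frontal cortex RNA of 24 mice was quantified by the authors with Salmon. Per the file headers, the deposited columns hold an expected count, a TPM and an effective length for each transcript. The submitters' processing notes also name STAR, SAMtools and DESeq2, without versions. The sources used here state neither genome build nor annotation release. Transcript identifiers were looked up in GENCODE M21 (GRCm38), which placed 138032 of 149444 transcripts (92.4%), and all 230 transcripts of the 39 genes had the same length there as in the files. Unplaced transcripts held 1.17% to 1.66% of reads and were left out.

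Deposited expected counts were summed per gene, rounded, filtered (edgeR's default filter) and tested with edgeR 4.0.16 in R 4.3.3: TMM scaling, quasi-likelihood test, a term for each genotype and for sex, all 24 libraries, two-sided. Standard errors were taken from the F statistic. CPM uses TMM-adjusted library sizes. Usage used limma 3.58.1 on rounded transcript counts. The scripts were tested on simulated data. Alternatives were other scaling, DESeq2 1.42.0, voom, filters, length-scaled counts, covariates and left-out libraries.

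Members, lists and tests were chosen with earlier results of these data known. Values by group are given for the 3 members of smallest p in the transgene, Grn and interaction comparisons and for 10 anchor genes chosen by role. Each library is a separate mouse per the labels.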

Additional observations from a re-analysis of the deposited data

Results flagged for a closer look

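Dixon's test for an outlying mouse was applied to 15 genes in 4 genotypes, 60 groups of 6, and 3 groups exceeded its critical value. Chance alone flags about 1 in 20 groups, or 3 of 60. Ctsb was 643 CPM in the sixth Grn+/-:hTDP- mouse, against 543 to 574 CPM in the other 5. Hexa was 48.8 CPM in the sixth Grn+/-:hTDP+ mouse, against 41.3 to 43.4 CPM in the other 5. Scarb2 was 144 CPM in the second Grn+/-:hTDP- mouse, against 122 to 130 CPM in the other 5. The cause was not tested.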

How the results depend on the processing

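No member was called in any comparison under any alternative run, namely 8 to 10 other settings and 24 fits that each left out a library. Each named gene with an unadjusted p under 0.05 kept its direction in all of them, and the smallest adjusted p was 0.144, for Cd63 in Grn+/-:hTDP+ against Grn+/+:hTDP-. The members' median ran between 0.01 and 0.06 for Grn in hTDP- mice and between -0.06 and -0.01 for the interaction over these fits. The 4 unadjusted interaction members became 0 without Grn+/+:hTDP+ replicate 2 or 5 or Grn+/+:hTDP- replicate 3 or 5, 0 with the marker lists as covariates, and 6 at most without another library. Over all genes, the 20 called for the average transgene change became 61 with DESeq2, 376 with the marker covariates and 2 with age as a factor, and the 4 called for Grn became 9, 3 and 1. With age as a factor, the Grn+/-:hTDP- level rests only on the mice of that group whose ages occur in another group. The 36 genes of changed usage for the transgene became 12 with edgeR's test and 17 with a 10% minimum share, and the 2 for Grn became 3 and 1. No paired analysis was possible because the labels give the mice no shared replicate numbers. The level of Gla was too low to resolve.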
